A study of Mus musculus with 4 samples.

Results

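Ribosomal protein genes encode the protein part of the cytosolic ribosome. They were taken here as every listed gene whose symbol starts with Rpl or Rps followed by a digit, together with Rplp0, Rplp1, Rplp2 and Rpsa, leaving out the ribosomal S6 kinases and the symbols that end in -ps and a number. This rule found 86 genes of the 31053 features listed for each library. Of these, 77 are standard subunits of the cytosolic ribosome. The other 9 are 8 paralogues or extra copies (Rpl3l, Rpl7l1, Rpl10l, Rpl22l1, Rpl36al, Rpl39l, Rps27l and Rps27rt) and Rps19bp1, which encodes a protein that binds Rps19 and is not a subunit. Fau, which encodes a small-subunit protein fused to a ubiquitin-like protein, lies outside the rule and is given only beside it. The measure was the share of all unique molecular identifiers (UMIs, 1 per captured RNA molecule) that these genes took, within classes of cells and by genotype.

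The RNA came from immune cells sorted from mammary tumours of FVB/NJ mice at 12 weeks of age. PyMT mice carry the polyoma middle T oncogene, which drives mammary tumours, and Jagged1/PyMT mice carry Jagged1, a Notch ligand, in addition. All groups therefore share PyMT, and there was no tumour-free group. The promoter behind the Jagged1 allele is not given in the sources used here. Each genotype has 2 labelled samples, which were deposited together in 1 matrix with no record of which barcode came from which sample. Each genotype is therefore 1 library, no comparison of genotypes could be tested, and every interval printed is a 95% interval that covers counting error only, not the spread between mice.

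Every ribosome has a small and a large subunit, and each is a scaffold of ribosomal RNA to which ribosomal proteins bind during assembly in the nucleolus. Most subunits are needed in equal amounts, and their mRNAs share a run of pyrimidines at the 5′ end, the TOP motif, through which nutrient signals and growth factors that act through mTOR adjust their translation as a group. Resting lymphocytes are small cells whose mRNA is rich in these transcripts, while mature neutrophils make few new ribosomes. A share of UMIs is relative: it falls when other RNAs rise, and it says nothing of the number of ribosomes in a cell.

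The start-site sequences of members on which the results turn are shown here, 15 bases before the annotated start and 15 from it. They come from RefSeq's table of promoters (GRCm38.p6) and run 5′ to 3′ on the gene's strand. The longest C-led run of at least 6 pyrimidines in each window is in capitals. Rps27 and Rps24 were among the members that differed most between T cells and macrophages, Rps9 differed least between neutrophils and macrophages, Rps27l, Rps27rt, Rpl22l1 and Rpl36al are paralogues or copies, and Rpl10 was the flattest across classes. Each window covers the end of the promoter and the start of the first exon.
Rps27: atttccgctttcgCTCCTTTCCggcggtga
Rps27rt: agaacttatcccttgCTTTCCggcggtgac
Rps27l: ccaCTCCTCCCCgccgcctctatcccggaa
Rps24: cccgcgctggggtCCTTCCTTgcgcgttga
Rps9: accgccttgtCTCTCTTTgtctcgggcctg
Rpl22l1: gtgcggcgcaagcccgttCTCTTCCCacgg
Rpl36al: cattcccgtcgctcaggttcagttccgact
Rpl10: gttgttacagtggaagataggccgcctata

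In the same order, these windows lie at chr3:90213634-90213663 on the minus strand, chr9:114982725-114982754 on the minus strand, chr9:66946071-66946100 on the plus strand, chr14:24490663-24490692 on the plus strand, chr7:3704026-3704055 on the plus strand, chr3:28805493-28805522 on the plus strand, chr12:69184053-69184082 on the minus strand and chrX:74270801-74270830 on the plus strand. The letters CTTTCC end the run in both Rps27 and Rps27rt. The run of Rps27l is another one and lies wholly before the annotated start, while that of Rps27 spans the start. Rpl36al and Rpl10 hold no such run in this window. Rps27l and Rps24 each have another annotated start, not shown, whose window holds no such run. Of the 86 genes, 66 had an entry in the promoter table, with 78 start sites. A C-led run of at least 6 pyrimidines within 10 bases of a start was present for 53.0% of these 66 genes and for 21.9% of all 27025 genes in the table. A run that begins exactly at the start was found for 18.2% against 2.05%, and the letters CTTTCC near the start for 16.7% against 1.30%. In the whole window of 300 bases, CCGGAAG, the core letters bound by ETS factors, was present on either strand for 39.4% of the members against 9.93%, and AAGATGGC, the core of the YY1 motif, for 9.09% against 3.19%. These are matches of letters and were not tested as sites. The 86 genes lie on 19 chromosomes.

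A barcode was kept as a cell when it held at least 500 UMIs from at least 250 genes with at most 10% mitochondrial UMIs. This left 7444 barcodes and 34199749 UMIs for PyMT and 7875 barcodes and 52790046 UMIs for Jagged1/PyMT, with medians of 3841 and 4200 UMIs per barcode. The 2 libraries shared 70 kept barcode sequences, against 79.5 given by the sizes of the lists alone. Jag1 itself had 67 UMIs in the PyMT library and 886 in the Jagged1/PyMT library, of which 1 and 120 lay in 88 and 39 epithelial-like barcodes. Cells were assigned to a class by marker genes, with at least 3 UMIs of the class's markers (10 for neutrophils) making up at least 80% of all marker UMIs, and a class is called "-like" for that reason. Each class's barcodes held a median of 8.5 to 197.5 UMIs of their own markers, leaving out the few cDC1-like and monocyte-like barcodes, and a median of at most 2 UMIs of the markers of other classes.

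T cells gave the largest part of their RNA to ribosomal proteins and neutrophils the smallest. In T cell-like barcodes the share was 38.2% (interval 38.2 to 38.2) in PyMT and 38.5% (38.4 to 38.5) in Jagged1/PyMT, over 4815 and 2401 barcodes. In B cell-like barcodes it was 26.8% and 27.8%, over 1381 and 1258 barcodes. Macrophage-like barcodes had 16.2% (16.2 to 16.3) and 17.4% (17.4 to 17.4), over 280 and 2478 barcodes. In the order of levels the T cell share was thus 2.36 times the macrophage share in PyMT and 2.21 times in Jagged1/PyMT, and 1.43 and 1.38 times the B cell share.

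Between B cells and macrophages lay the smaller classes. NK cell-like barcodes, 32 and 13 of them, had 22.4% and 24.2%. Plasmacytoid dendritic cell-like barcodes had 19.0% and 19.7% over 23 and 32 barcodes, and mature dendritic cell-like barcodes 17.5% and 20.1% over 70 and 66. Between 2000 and 5000 UMIs the plasmacytoid dendritic cell-like share was 21.0% of 12809 UMIs in PyMT and 1.87% of only 5505 UMIs in Jagged1/PyMT. Epithelial-like barcodes, which passed the immune sort, had 20.2% and 23.2%. The order T, B, macrophage, neutrophil was the same in both libraries, while NK, epithelial, plasmacytoid and mature dendritic cells lay within 5 points of each other in each library, on few barcodes. cDC1-like (6 and 3 barcodes) and monocyte-like (3 and 9) groups were too small to place.

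Neutrophil-like barcodes had a summed share of 7.68% and 8.16%, but this sum was raised by a few barcodes. The median barcode had 2.67% in PyMT and 4.27% in Jagged1/PyMT, while the 95th percentile was 12.4% and 18.8%. With a stricter gate (at least 5 marker UMIs and 95% of them in the class) the summed share was 3.06% and 4.84%, and without the barcodes with the highest doublet scores it was 3.64% and 6.22%. Under both of these settings the neutrophil share was lower than that of T cells, B cells, macrophages and mature dendritic cells.

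**Figure D1:**
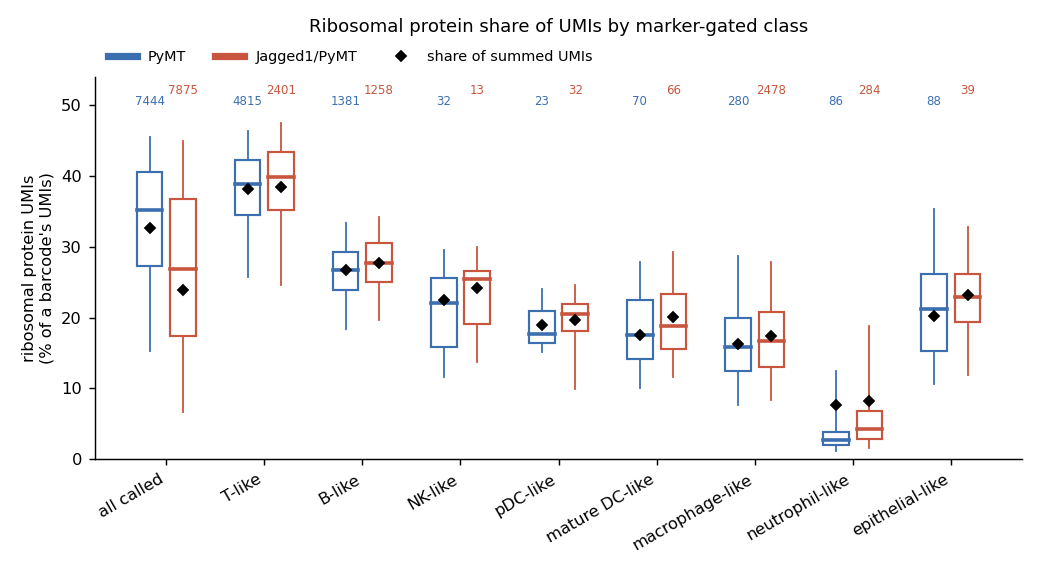
Share of UMIs from ribosomal protein genes per barcode, in percent (y axis), by marker-gated class (x axis) and library. Boxes span the quartiles with the median line, whiskers run from the 5th to the 95th percentile, diamonds mark the share of the summed UMIs and the numbers give barcodes. T cell-like boxes sit highest (summed share 38.2% and 38.5%) and neutrophil-like boxes lowest (medians 2.67% and 4.27%).

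Within T cells the share followed the depth of the barcode, and within macrophages it did not. T cell-like barcodes of 500 to 1000 UMIs had 24.2% in PyMT and 12.9% in Jagged1/PyMT, those of 4000 to 8000 UMIs 40.0% and 40.9%, and those of at least 16000 UMIs 29.7% and 26.7%. The shares were thus highest at middle depth in both libraries. Macrophage-like barcodes ranged over the same bands from 16.0% to 17.8% in PyMT and from 16.5% to 18.0% in Jagged1/PyMT. B cell-like barcodes rose from 19.7% (1000 to 2000 UMIs) to 27.7% (4000 to 8000 UMIs) in PyMT and from 21.8% to 29.1% in Jagged1/PyMT. Median depth was 3908 and 3804 UMIs in T cell-like barcodes, and 6571 and 9663.5 in macrophage-like barcodes. When each barcode was thinned to 1000 UMIs the shares were 37.9% and 38.8% in T cells, 26.3% and 27.5% in B cells, 16.4% and 17.2% in macrophages and 4.12% and 6.27% in neutrophils. The shallower barcodes left out numbered 35 and 40, 13 and 20, 34 and 98, and 1 and 10. Among barcodes of 2000 to 5000 UMIs in both classes, the T cell share was higher by 1.24 and 1.2 on the log2 scale, beside 1.24 and 1.14 over all depths.

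**Figure D2:**
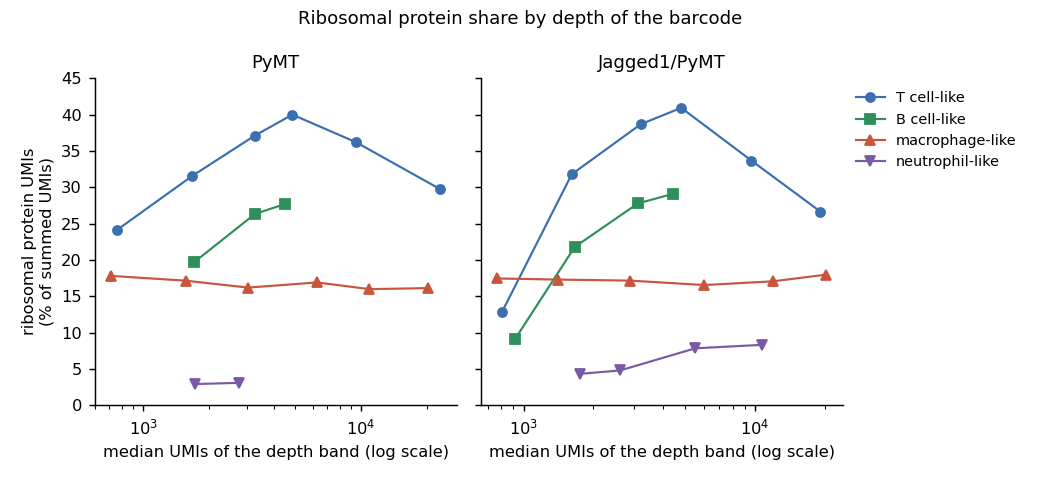
Share of UMIs from ribosomal protein genes in percent (y axis) against the median UMIs per barcode of each depth band (x axis, log scale), for bands with at least 20 barcodes, by class, in 1 panel per library. T cell-like values peak between 4000 and 8000 UMIs (40.0% and 40.9%), whereas macrophage-like values stay between 16.0% and 18.0%.

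T cells were not uniform. T cell-like barcodes with UMIs of Cd8a or Cd8b1 and none of Cd4 had 40.6% and 39.5%, and those with UMIs of Cd4 and none of Cd8a or Cd8b1 had 37.0% and 37.8%. Between 2000 and 5000 UMIs these were 40.3% and 40.9% against 37.9% and 39.3%. Regulatory T cells, gated by a UMI of Foxp3 without Cd8a or Cd8b1, had 28.4% in PyMT (85 barcodes) and 29.6% in Jagged1/PyMT (35 barcodes). The value for regulatory T cells depended on depth in Jagged1/PyMT: between 2000 and 5000 UMIs it was 28.6% over 45 barcodes and 35.5% over 19.

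T cells with naive markers (at least 3 UMIs of a list with Lef1, Ccr7, Tcf7 and S1pr1) stood above those with effector markers (at least 3 UMIs of Ccl5, Nkg7, Gzmb, Cxcr6, Pdcd1, Tnfrsf4 and S100a4), each without UMIs of the other list. The naive-marker barcodes had 38.7% and 39.5% over 3073 and 1424 barcodes, and the effector-marker barcodes had 25.2% and 27.3% over 65 and 56. Between 2000 and 5000 UMIs the difference remained, with 38.6% and 39.8% against 24.0% (25 barcodes) and 26.1% (19 barcodes). Cycling T cells, with at least 3 UMIs of Mki67, Top2a and similar genes, whose median depth was 18167 and 16422.5 UMIs, had 29.2% and 26.5% over 28 and 32 barcodes, against 38.5% and 39.2% in the other T cells. Too few cycling T cells lay between 2000 and 5000 UMIs to give the share at matched depth. All T cell-like barcodes of at least 16000 UMIs, which overlap the cycling ones, had 29.7% and 26.7%, near the cycling values. The part of depth in this gap was not tested. Cycling macrophages had 15.9% and 17.5% beside 16.3% and 17.4% in the others, so no comparable gap was seen there over all depths. Between 2000 and 5000 UMIs in Jagged1/PyMT they had 16.1% over 34 barcodes, against 17.4% over 417. B cells with a UMI of Myc, the transcription factor known to drive ribosomal protein genes, had 26.6% and 27.5%, against 26.9% and 28.3% without. T cells with a UMI of Myc had 37.2% and 36.4%, against 38.3% and 38.8% without. Between 2000 and 5000 UMIs these T cell values were 37.6% and 40.2%, against 38.3% and 39.6%. In macrophages the direction differed between the libraries over all depths, with 15.1% and 17.7% against 16.6% and 17.3%.

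Over all barcodes the ribosomal protein share was 32.7% in PyMT and 23.9% in Jagged1/PyMT, a difference of -8.80 points. T cell-like barcodes held 60.6% of the PyMT UMIs and 19.3% of the Jagged1/PyMT UMIs, and macrophage-like barcodes 6.42% and 49.4%. When each class kept its own share and only the weights of the classes were exchanged, the difference was -9.17 points at the PyMT shares and -9.07 points at the Jagged1/PyMT shares. When the weights were held fixed and only the shares within classes differed, Jagged1/PyMT was 0.27 points higher at PyMT weights and 0.37 points higher at Jagged1/PyMT weights. The makeup of the barcodes and the share over all cells thus moved together, and the weighted difference within classes had the opposite sign. Barcodes that passed no gate, 660 and 1292 of them, entered the weighting as a further class, with 11.2% and 17.9% of the UMIs. Their share was lower in Jagged1/PyMT (27.1%) than in PyMT (29.5%). The few cDC1-like barcodes were also lower, at 22.4% against 23.5%.

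Within T cells, B cells and macrophages the genotypes lay close. The Jagged1/PyMT share over the PyMT share was 0.01 on the log2 scale in T cell-like barcodes (interval 0.0078 to 0.0113), 0.05 in B cell-like barcodes (0.0486 to 0.0558) and 0.10 in macrophage-like barcodes (0.0986 to 0.1085). These are folds of 1.01, 1.04 and 1.07. The sign in T cells turned to -0.0014 when mitochondrial UMIs were left out of the total; mitochondrial UMIs were 3.22% and 2.49% of T cell-like UMIs. Mature dendritic cell-like barcodes differed by 0.20 and epithelial-like barcodes by 0.20, on 66 to 70 and 39 to 88 barcodes a library. Neutrophil-like barcodes differed by 0.09 in the summed share, which a few barcodes raised. The genotypes lay further apart there with the stricter gate (3.06% and 4.84%) and without the highest doublet scores (3.64% and 6.22%). Between 2000 and 5000 UMIs the neutrophil shares were 3.22% and 5.13%. Free RNA, read from barcodes under 100 UMIs, had 27.6% in PyMT and 19.5% in Jagged1/PyMT. Its part in the differences within classes was checked only by subtracting it at 5% of each class, which gave 0.0253 in T cells, 0.0760 in B cells and 0.1496 in macrophages.

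Members were then compared one at a time as counts per 1000000 UMIs of the class (CPM). A member was compared where it had at least 50 UMIs over both sides, and it was called higher or lower when its CPM differed by more than 1.5-fold. Rpl10l had 0 UMIs, Rpl39l 18 and Rpl3l 66 over all classes, so most comparisons covered 83 members. Rpl10l and Rpl39l are paralogues known mainly from testis, and Rpl3l is known mainly from muscle. Rps27rt is a copy of Rps27 that shares 91.1% of its 325 windows of 50 bases with Rps27, so reads from one may be counted for the other and its values are uncertain. With 1 library on each side, a call is a size of difference and not a test.

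Nearly every member was higher in T cells than in macrophages. In PyMT 74 of 83 members were past 1.5-fold higher and 2 past 1.5-fold lower, where 28.1% of all 9779 genes compared were higher and 30.3% lower. In Jagged1/PyMT 71 were higher and 3 lower, where 22.1% of 10861 genes were higher and 36.1% lower. The median member differed by 1.15 and 1.05 on the log2 scale, and the median of all genes by 0.01 and -0.16. All members that were lower were paralogues or Rps19bp1: Rps27l at -1.81 and -1.66, Rps19bp1 at -0.75 and -0.66, and Rpl7l1 at -0.89 in Jagged1/PyMT. No standard subunit was past 1.5-fold lower in either library.

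Among small-subunit proteins Rps27, a zinc-binding protein of the small subunit, had the largest difference. Its level in T cell-like barcodes was 11155 CPM (PyMT) and 9566 CPM (Jagged1/PyMT), and in macrophage-like barcodes 2966 and 2332 CPM. This is 1.91 and 2.04 on the log2 scale. Rps24, a small-subunit protein needed to process ribosomal RNA, had 15550 and 15777 CPM in T cells and 4779 and 5204 CPM in macrophages (1.70 and 1.6). Rpsa, a small-subunit protein also described as a laminin receptor, had 9310 and 9068 CPM against 3062 and 3157 CPM (1.6 and 1.52). The values of both T cell libraries lay above both macrophage libraries for each of these 3 genes. Rps19, mutated in Diamond-Blackfan anaemia, differed by 1.58 and 1.42.

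Rplp0, Rplp1 and Rplp2 form the stalk of the large subunit, which recruits elongation factors. Rplp1 was at 8903 and 8053 CPM in T cells against 2829 and 2835 CPM in macrophages, a log2 difference of 1.65 and 1.51. Rpl12 sits at the base of that stalk and differed by 1.67 and 1.48. Rplp0 was at 7974 and 8135 CPM against 3252 and 3458 CPM, and Rplp2 at 3952 and 4178 CPM against 1816 and 2025 CPM. Rpl5 and Rpl11, which bind Mdm2 when ribosome assembly fails, stood at 1754 and 1784 CPM against 612 and 671 CPM for Rpl5 and at 4216 and 4116 CPM against 2207 and 2357 CPM for Rpl11. The difference was larger for Rpl5 (1.52 and 1.41 on the log2 scale) than for Rpl11 (0.93 and 0.80), in both libraries. Rpl13a, a large-subunit protein, differed by 1.62 and 1.55.

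Other members with a known role of their own lay nearer the middle. Rps6, the small-subunit protein that S6 kinases phosphorylate, was at 1946 and 2077 CPM in T cells against 885 and 979 CPM in macrophages (1.14 and 1.09). Rpl38, known for its part in the translation of Hox mRNAs, was at 6303 and 6224 CPM against 2888 and 3036 CPM (1.13 and 1.04). Rps27a, made as a fusion with ubiquitin, differed by 0.94 and 0.88, and Rpl10a by 0.97 and 0.78. Rps25, a small-subunit protein used by viral internal ribosome entry sites, was at 1012 and 1059 CPM against 660 and 729 CPM, and its difference of 0.62 in PyMT and 0.54 in Jagged1/PyMT lay on either side of 1.5-fold.

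A few standard subunits hardly differed between T cells and macrophages. Rpl10, which joins the large subunit late in its assembly, was at 535 and 592 CPM in T cells and at 558 and 570 CPM in macrophages, a log2 difference of -0.06 and 0.05. Rps2, a small-subunit protein, was at 189 and 165 CPM against 160 and 152 CPM. Its difference of 0.24 in PyMT became 1.26 among barcodes of 2000 to 5000 UMIs. Rpl41, the shortest ribosomal protein, differed by 0.31 and 0.21, and Rpl7a by 0.37 and 0.26.

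**Figure D3:**
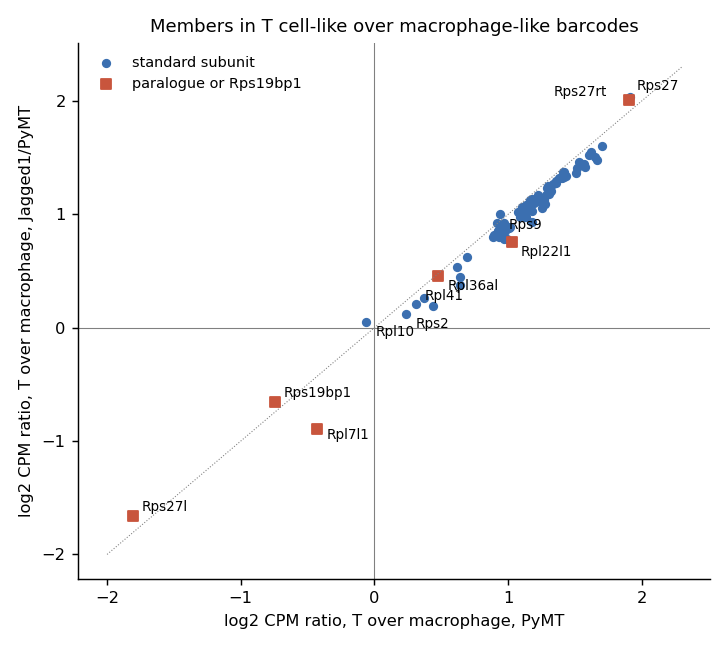
Log2 ratio of CPM in T cell-like over macrophage-like barcodes for each of 83 members, in PyMT (x axis) and Jagged1/PyMT (y axis). Most points lie near 1.15 on the x axis and 1.05 on the y axis, with Rps27 at 1.91 and 2.04 in the upper corner, Rpl10 near 0, and Rps27l at -1.81 and -1.66 in the lower corner.

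Across the 5 classes with at least 50 barcodes in each library (T, B, mature dendritic, macrophage and neutrophil), 79 of 83 members had their highest CPM in T cells in each library. The lowest CPM was in neutrophils for 78 members in PyMT and 79 in Jagged1/PyMT. The same counts were not made over all genes. Of all genes compared, 51.7% and 53.1% were past 1.5-fold lower in neutrophils than in macrophages, so low values there were not limited to the members. The distance from the lowest to the highest class, in the mean of both libraries, had a median of 2.23 on the log2 scale. Rpl10 had the narrowest range, 0.90, followed by Rps9 at 0.99, Rps2 at 1.06 and Rpl7l1 at 1.09. The widest ranges were those of Rps27l (3.82), Rps27rt (3.18), Rps19bp1 (2.91), Rps24 (2.75), Rpl12 (2.72), Rps20 (2.71), Rps15a (2.69) and Rps4x (2.66). Those of Rps27rt and Rps19bp1 rest on few UMIs in the lowest class. Rps27rt had 2 and 22 UMIs in neutrophils, and Rps19bp1 had 5 and 2 in mature dendritic cells. Rps4x is encoded on the X chromosome, and Rps15a and Rps20 are small-subunit proteins.

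T cells also stood above B cells, by less. In PyMT 22 of 83 members were past 1.5-fold higher and 2 lower, where 19.4% of 9743 genes were higher and 23.6% lower. In Jagged1/PyMT 17 were higher and 0 lower, where 18.6% and 23.1% of 8967 genes were called. The share of members called higher was thus near that of all genes, but the median member was at 0.46 and 0.44 and the median gene at -0.10 and -0.07. Rplp1 led with 8903 and 8053 CPM in T cells against 3964 and 4146 CPM in B cells (1.17 and 0.96 on the log2 scale). Rps16 followed at 0.89 and 0.85, Rps28 at 0.89 and 0.87, Rpl5 at 0.80 and 0.82, and Rplp0 at 0.81 and 0.82. Rpl37a was nearly level at 0.08 and 0.02. The 2 members past the fold in the other direction in PyMT were Rpl7l1 (-0.64) and Rps19bp1 (-0.61).

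In neutrophils almost all members were lower than in macrophages. In PyMT 0 of 83 members were past 1.5-fold higher and 80 lower, where 17.3% of 5121 genes were higher and 51.7% lower. In Jagged1/PyMT 1 of 84 was higher and 80 were lower, where 14.2% of 10453 genes were higher and 53.1% lower. The median member was at -1.12 and -1.15, and the median gene at -0.64 and -0.67. Rps9, which binds early in the assembly of the small subunit, was at 2770 and 2596 CPM in neutrophils and at 2744 and 2678 CPM in macrophages (0.01 and -0.04). Rps27 was at 2426 and 1846 CPM against 2966 and 2332 CPM (-0.29 and -0.34), and moved to -0.90 in PyMT between 2000 and 5000 UMIs.

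The size of the neutrophil difference depended on which barcodes were used, with the few barcodes of high share described above. Rps24 was at -1.17 and -1.03 over all neutrophil-like barcodes and at -3.42 and -2.07 among those of 2000 to 5000 UMIs. Rpl3, a large-subunit protein near the catalytic centre, was at -1.56 and -1.46, and at -4.34 and -2.49 in that range. Rpl22l1 was at -1.78 in PyMT and at -4.37 in that range. In each of these the direction was the same. Rpl3l was the member called higher in Jagged1/PyMT, with 15 UMIs in 284 neutrophil-like and 41 UMIs in 2478 macrophage-like barcodes (2.66 on the log2 scale). In PyMT it had 3 UMIs in each of these classes, and in T and B cells it had 0 UMIs in both libraries. Rpl3l UMIs were thus few and lay in myeloid barcodes.

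Between mature dendritic cells and macrophages some members were higher and some lower, each in a smaller share than among all genes. The median member lay above the median gene in both libraries. In PyMT 8 of 83 members were past 1.5-fold higher and 8 lower, where 18.1% of 5581 genes were higher and 45.1% lower. In Jagged1/PyMT 7 were higher and 7 lower, where 17.9% of 10414 genes were higher and 41.8% lower. The median member was at 0.01 and 0.12, and the median gene at -0.46 and -0.35. Rps19 was at 6386 and 7065 CPM in mature dendritic cells against 2404 and 2788 CPM in macrophages (1.41 and 1.34 on the log2 scale). Rps27 was at 5283 and 4931 CPM against 2966 and 2332 CPM (0.83 and 1.08), and Rpsa at 4903 and 5954 CPM against 3062 and 3157 CPM (0.68 and 0.92). Rpl34 (0.67 and 0.70) and Rpl24 (0.64 and 0.70), both in the large subunit, were also past the fold, as were Rps27rt and Rps27l in both libraries and Rpl27 in PyMT.

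Lower in mature dendritic cells were Rps19bp1 (-2.60 and -3.23), Rpl22l1 (-1.58 and -1.57), Rpl12 (-1.20 and -0.80), Rpl10a (-0.79 and -0.71), Rps2 (-0.77 and -1.0) and Rpl7l1 (-1.0 and -0.80). Rpl8 passed the fold in PyMT (-0.71). Rps19 and Rps19bp1 thus moved in opposite directions, the latter on 5 UMIs in PyMT and 2 in Jagged1/PyMT. Mature dendritic cell-like barcodes had medians of 10260.5 and 7867 UMIs. Only few lay at low depth, and there some values changed: under 4000 UMIs Rpsa was at -0.06 in Jagged1/PyMT, and Rpl12 was at -0.26 in PyMT and -1.42 in Jagged1/PyMT.

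Naive-marker T cells were above effector-marker T cells for many members, but not for all. In PyMT 38 of 83 members were past 1.5-fold higher and 2 lower, where 16.0% of 8114 genes were higher and 34.8% lower. In Jagged1/PyMT 27 were higher and 4 lower, where 19.0% of 6598 genes were higher and 35.3% lower. The median member was at 0.51 and 0.41, beside -0.29 and -0.25 for all genes. Rps27 was at 1.15 and 1.46 on the log2 scale, Rps19 at 1.36 and 1.2, Rps29 at 1.07 and 1.14, Rpl12 at 1.05 and 1.06 and Rpl8 at 1.06 and 0.98. In the other direction lay Rps27l (-1.20 and -2.15), Rps19bp1 (-1.06 and -0.89) and Rpl41 (-0.37 and -0.76). Rpl10, flat across classes, was at -0.23 and -0.16. In the cycling T cells Rps27 was also lower than in other T cells, by 1.65 and 1.69 on the log2 scale, and Rps27l was higher, the other cells being at -2.59 and -2.17 relative to them.

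Between the genotypes, 0 of 83 members were past 1.5-fold in T cells in either direction, where 6.72% of 9774 genes were higher in Jagged1/PyMT and 5.94% lower. At 1.2-fold the count was also 0 in both directions, where 21.9% of genes were higher and 21.7% lower. In B cells 0 of 83 were past 1.5-fold in either direction, where 4.50% of 7934 genes were higher and 6.01% lower. At 1.2-fold 0 were higher and 3 lower (Rps19bp1 -0.51, Rpl7l1 -0.35 and Rps27l -0.30), where 16.7% and 23.9% of genes were called. None of the 3 is a standard subunit, and Rps19bp1 had 37.7 and 26.4 CPM in B cells. In macrophages 0 of 83 were past 1.5-fold, where 10.3% of 10439 genes were higher and 10.0% lower. In simulated counts, 1.49% of unchanged genes in T cells and 8.59% in macrophages passed 1.5-fold in either direction by counting error alone. The shares of all genes include such genes with few UMIs, while most members have many, so the 2 are not alike in this respect.

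At 1.2-fold in macrophages 6 members were higher and 2 lower, where 26.7% and 25.5% of genes were called. The higher ones included Rpl22l1 (0.31), Rpl31 (0.30), Rpl32 (0.28), Rpl7l1 (0.27) and Rps20 (0.27), and the lower ones were Rps27 (-0.35) and Rps27rt (-0.26). Rps20 had 3278 and 3953 CPM in the 2 libraries, and Rpl32 at 2860 and 3477 CPM. Rpl10a, part of the large subunit, was at 1604 and 1919 CPM (0.26). Between 2000 and 5000 UMIs Rpl7l1 was at 0.88 (interval -0.29 to 2.35), while under 4000 UMIs it was at -0.05. Rps27l, which was level over all depths, was at 0.83 (0.32 to 1.40) between 2000 and 5000 UMIs. The median over the members was 0.04 in T cells, 0.05 in B cells and 0.12 in macrophages, beside 0.00, -0.03 and 0.03 for all genes. In macrophages the median depth differed between the libraries, at 6571 and 9663.5 UMIs, and the part of depth in these member values was not tested beyond the 2000 to 5000 band.

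The intervals of 39 of 83 members lay above 0 in all of T cells, B cells and macrophages, and those of 3 below 0 in all of them: Rps27, Rps28 and Rps29, all of the small subunit. Most members have many UMIs, so that small differences clear 0. The same count was not made over all genes, so it is not known whether these counts are particular to the members. Rps27 went from 11155 to 9566 CPM in T cells (-0.22, interval -0.23 to -0.21), from 8952 to 8149 CPM in B cells (-0.14) and from 2966 to 2332 CPM in macrophages (-0.35). It was lower in the Jagged1/PyMT library in each of these 3 classes. Rps28 was at -0.14, -0.12 and -0.09, and Rps29 at -0.14, -0.07 and -0.10 in the same order. In free RNA the same genes were at -1.0 for Rps27, -0.61 for Rps28 and -0.56 for Rps29, and the part of free RNA in these values was not tested.

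Among the other members in T cells Rps18 (-0.18) and Rplp1 (-0.14) were below 0, as were, with wider intervals, Rpl7l1 (-0.19, interval -0.37 to -0.02), Rps2 (-0.19, -0.28 to -0.11) and Rps27rt (-0.16, -0.28 to -0.04). Among the highest were Rps12 (0.16), Rpl10 (0.15), Rps20 (0.12) and Rpl35 (0.12). In B cells Rpl37 (0.17), Rpl39 (0.16), Rpl30 (0.16) and Rps20 (0.15) were among the highest and Rps18 (-0.16) was lowest among standard subunits. Rps20 was thus among the highest in both lymphocyte classes. In macrophages Rpl34 was at -0.06 and Rps9 at -0.04, with an interval of Rps9 that reached above 0. Rps19bp1 (-0.22) and Rps2 (-0.08) were lower in value, and their intervals also reached above 0. Each difference in this paragraph was under 1.2-fold.

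In mature dendritic cells 2 of 81 members were past 1.5-fold higher in Jagged1/PyMT and 0 lower, where 5.63% of 2627 genes were higher and 8.91% lower. These were Rpl12 (421 against 647 CPM, 0.62) and Rpl29 (0.62). In free RNA 0 of 83 were past 1.5-fold higher and 15 lower, where 16.9% of 5628 genes were higher and 17.4% lower. The median member in free RNA was at -0.47, against -0.07 for all genes. In epithelial-like barcodes Rpl38 had 3924 CPM in the PyMT library and 7481 CPM in the other (0.93), beside -0.02 in T cells, 0.01 in B cells and 0.07 in macrophages. The epithelial-like value rests on 88 and 39 barcodes, and the median member there was at 0.18, against -0.04 for all genes. Whether it depends on the gate, depth or doublets was not tested.

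**Figure D4:**
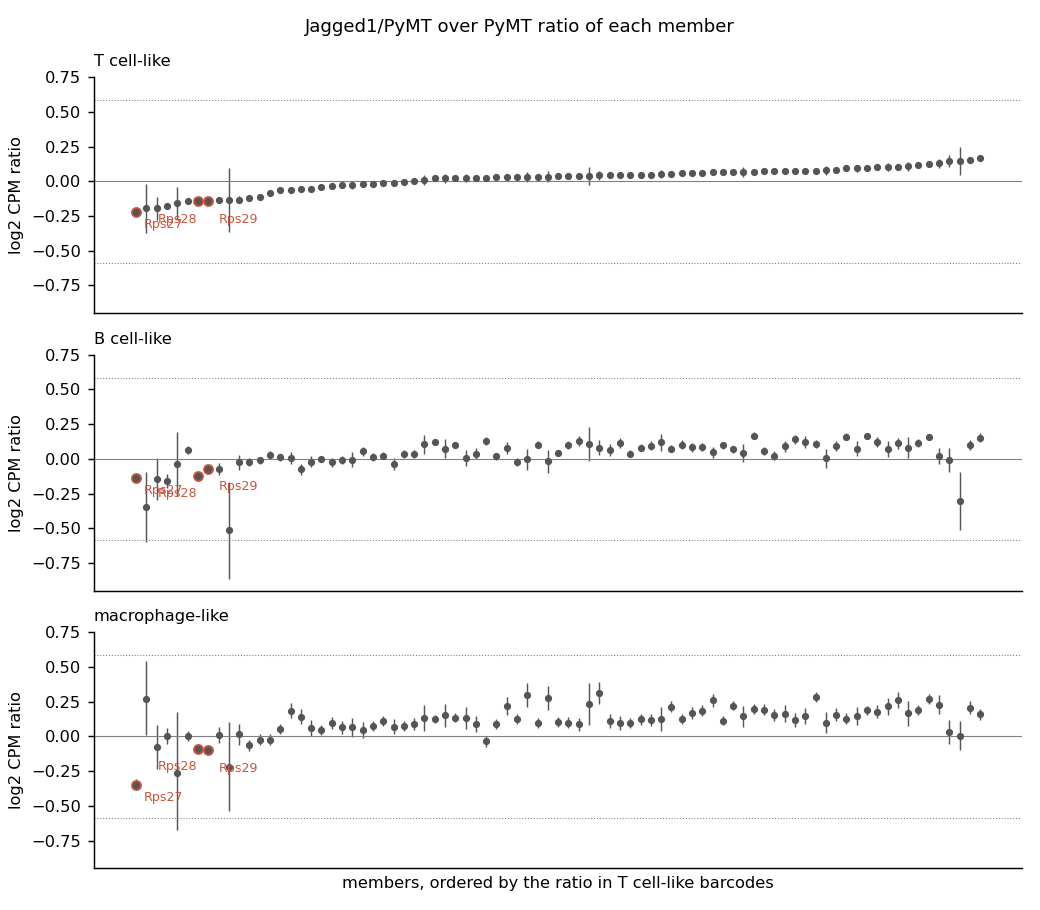
Log2 ratio of CPM in Jagged1/PyMT over PyMT (y axis) for each member, ordered along the x axis by its ratio in T cells, with its 95% counting interval, in panels for T cell-like, B cell-like and macrophage-like barcodes; dotted lines mark 1.5-fold. No member lies past the dotted lines, the medians are 0.04, 0.05 and 0.12, and Rps27 lies below 0 in every panel.

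The paralogues were used unequally by the classes. Rps27l, a paralogue of Rps27 known as a target of p53, made up 0.93% of the UMIs of the pair in T cells in PyMT (interval 0.89 to 0.97) and 1.2% in Jagged1/PyMT, and 1.03% and 0.92% in B cells. In macrophages it made up 11.0% (10.3 to 11.8) and 13.7% (13.4 to 13.9), in mature dendritic cells 19.2% (18.1 to 20.3) and 18.5% (17.2 to 19.9) and in epithelial-like barcodes 23.0% and 19.5%. Plasmacytoid dendritic cells lay between the lymphocytes and macrophages at 4.52% and 4.37%. Rps27l itself was at 105 and 116 CPM in T cells, 368 and 369 CPM in macrophages and 1255 and 1118 CPM in mature dendritic cells. Both the rise of Rps27l and the fall of Rps27 from T cells to macrophages entered this percentage.

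The Rps27l percentage of mature dendritic cells depended on depth. Between 2000 and 5000 UMIs it was 11.0% in PyMT and 8.05% in Jagged1/PyMT, where macrophages were at 5.92% and 14.9%. In Jagged1/PyMT mature dendritic cells were thus below macrophages at this depth, the reverse of their order over all depths. Under 4000 UMIs it was 5% and 9.82% in mature dendritic cells, on few UMIs, and the difference of Rps27l between mature dendritic cells and macrophages was -0.23 in PyMT instead of 1.77. Rps27rt made up 0.80% and 0.84% of its pair with Rps27 in T cells and 0.81% and 0.85% in macrophages, and did not follow Rps27l.

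Rpl22l1, the paralogue of the large-subunit protein Rpl22 that is needed for T cell development, made up 33.0% and 32.5% of the pair in T cells, 34.1% and 33.5% in B cells, and 34.1% and 36.7% in macrophages. In mature dendritic cells it made up 14.0% (12.0 to 16.2) and 14.9% (12.7 to 17.4). It was at 216 and 270 CPM there, beside 645 and 801 CPM in macrophages, while Rpl22 was at 1324 and 1534 CPM beside 1246 and 1381 CPM. In Jagged1/PyMT the percentage was 9.30% between 2000 and 5000 UMIs, and in PyMT it was 30.8% under 4000 UMIs, with an interval from 9.09% to 61.4%.

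Rpl36al, a paralogue of the large-subunit gene Rpl36a, made up 24.3% and 24.4% of its pair in T cells, 23.8% and 22.7% in B cells and 37.2% and 36.2% in macrophages. In plasmacytoid dendritic cells it reached 54.8% (50.3 to 59.3) and 52.0% (48.1 to 55.9), at 1428 and 1420 CPM. Rpl31 was also highest there among the gated immune classes, at 1651 and 1651 CPM beside 786 and 804 CPM in T cells. Both values rest on 23 and 32 barcodes. Rpl7l1, a relative of Rpl7 that acts in ribosome assembly, made up 1.37% and 1.18% of its pair in T cells and 4.51% and 5.07% in macrophages. Rpl3l made up 2.01% (0.417 to 5.77) and 1.78% (1.0 to 2.92) of its pair with Rpl3 in neutrophils and 0.103% and 0.105% in macrophages.

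**Figure D5:**
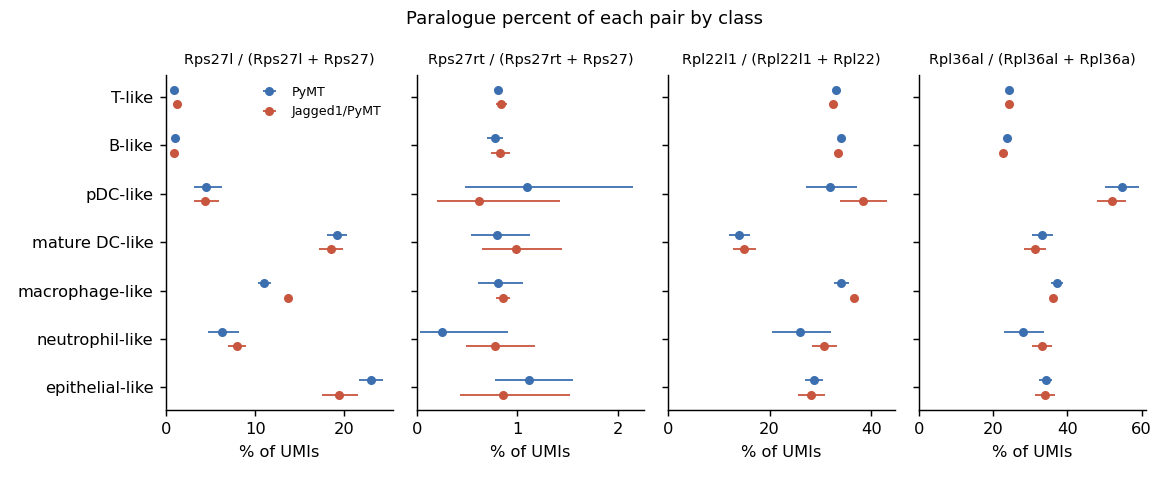
Share of each paralogue in the UMIs of the paralogue and its standard partner, in percent (x axis), by class (y axis) and library, with 95% counting intervals, in 1 panel for each of 4 pairs. Rps27l rises from about 0.93% in T cell-like PyMT barcodes to 19.2% in mature dendritic cell-like ones, and Rpl22l1 stands at 14.0% in the latter, and Rpl36al reaches 54.8% in plasmacytoid dendritic cell-like barcodes.

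Other genes of protein synthesis were taken from 3 lists: 26 translation factors and other mRNAs with a TOP motif, 30 genes of ribosome biogenesis and 78 genes of the mitochondrial ribosome. From macrophages to T cells, 19 and 17 of 26 translation genes were past 1.5-fold higher and 3 and 3 lower in PyMT and Jagged1/PyMT, with medians of 0.81 and 0.72. Of 30 biogenesis genes 18 and 12 were higher and 2 and 0 lower, with medians of 0.65 and 0.54. Of 78 mitochondrial ribosome genes 7 and 2 were higher and 18 and 24 lower, with medians of -0.12 and -0.37. Over all genes 28.1% and 22.1% were higher and 30.3% and 36.1% lower, with medians of 0.01 and -0.16. The lower shares of the mitochondrial list were thus no larger than those of all genes. Fau was at 0.82 and 0.73, higher in T cells like most members. Eif4ebp1, an inhibitor of cap-dependent translation that mTOR switches off, was at 6.47 and 11.0 CPM in T cells against 102 and 135 CPM in macrophages (-3.98 and -3.62).

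Mature dendritic cells differed from macrophages in the biogenesis list, of which 16 of 18 measured genes in PyMT and 26 of 30 in Jagged1/PyMT were past 1.5-fold lower and 0 higher, with medians of -1.62 and -1.65, where 45.1% and 41.8% of all genes were lower. The members had medians of 0.01 and 0.12 in this comparison. In the Jagged1/PyMT library 3 of the 30 biogenesis genes had 0 UMIs in mature dendritic cells and were set at 3 counts. Between 2000 and 5000 UMIs 1 gene could be measured in PyMT (0.52) and 13 in Jagged1/PyMT (median -0.73). Nop56, a core protein of the particles that modify ribosomal RNA, was at 5.47 CPM in mature dendritic cells of PyMT and 43.7 CPM in macrophages.

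Between the genotypes the medians of the translation list were 0.03 in T cells, 0.02 in B cells and 0.10 in macrophages, and those of the biogenesis list 0.03, -0.28 and 0.19. In macrophages 11 of 78 mitochondrial ribosome genes were past 1.5-fold higher and 1 lower, with a median of 0.30, where 10.3% of all genes were higher and 10.0% lower. Pabpc1, the poly(A)-binding protein, whose mRNA also has a TOP motif, was lower in Jagged1/PyMT in all 3 classes: 1396 against 768 CPM in T cells (-0.86), 1115 against 625 CPM in B cells (-0.84) and 807 against 456 CPM in macrophages (-0.82). In free RNA Pabpc1 was at 1167 and 507 CPM, and the part of free RNA in its difference was not tested. No standard ribosomal protein differed by as much in these classes.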

How the data were processed

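Single-cell RNA was captured from sorted tumour immune cells with a 10x Genomics kit that reads 3′ ends, per the labels' protocols. The authors deposited raw UMI counts per gene and barcode for 1 matrix per genotype. Cell Ranger 3.0.2 is named in the submitters' processing notes, and neither genome build nor annotation was given in the sources used here. From the counts, barcodes were filtered and gated by markers as stated, and UMIs were summed per class and library (Python 3.11.15, NumPy 2.4.6, SciPy 1.17.1, pandas 2.3.3, matplotlib 3.10.9). Intervals are exact: Clopper-Pearson for shares, and a conditional binomial for ratios of CPM. Since UMIs count molecules, the intervals cover counting error only. A value of 0 was set at 3 counts for a ratio, and such a ratio was called only in the direction it bounds. Scrublet (scanpy 1.11.5) marked 0.0403% and 0% of barcodes by its automatic limit and so had not worked. Doublets were therefore kept, and the 443 and 496 barcodes with the highest scores were left out as an alternative. The comparisons were tested on simulated data before use. Protein sequences were not used, and a few genes are not reported here by name.

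The members and gene lists were chosen with earlier results of these data known. Genes were named by a rule: the 5 highest and 5 lowest members between genotypes in T cells, B cells and macrophages among those with at least 100 UMIs in each library, ranked by the interval bound nearest the class median, the 8 members with the widest and the 4 with the narrowest range over classes, all paralogues with their partners, a fixed set of subunits, and up to 4 genes of each related list. Members named in the comparisons of classes beyond these were chosen after their values were seen, as the most extreme. Alternatives covered the gate, the mitochondrial limit, depth, doublets, the way of summing, the total, free RNA, the member list, the fold and the UMI minimum. Barcodes under 4000 UMIs were added after the data were seen. Each genotype had 1 library, so no p-value is given.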

Additional observations from a re-analysis of the deposited data

Results flagged for a closer look

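The following members had log2 ratios of Jagged1/PyMT over PyMT below 0 in T cell-like barcodes and above 0 in macrophage-like barcodes, with both counting intervals clear of 0. These are Rpl7l1 (-0.19 in T cells and 0.27 in macrophages), Rpl3 (-0.061 and 0.18), Rpl14 (-0.055 and 0.14), Rpl19 (-0.065 and 0.05), Rps13 (-0.055 and 0.06), Rpsa (-0.038 and 0.04), Rpl11 (-0.035 and 0.10), Rpl8 (-0.028 and 0.06) and Rpl38 (-0.018 and 0.07). The difference between the classes was not tested, since each genotype is 1 library, and all but that of Rpl7l1 are under 1.2-fold in each class.

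The 9 features whose symbols end in -ps and a number were left out by the rule. They took 0.694% of the UMIs of kept barcodes in PyMT and 0.483% in Jagged1/PyMT, which is 2.13% and 2.02% of the members' UMIs.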

How the results depend on the processing

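In T cell-like barcodes the log2 ratio of the share between the genotypes, 0.0095, was 0.0063 with a looser gate (2 UMIs and 70%), 0.0116 with a mitochondrial limit of 5%, 0.0119 from 1000 UMIs, 0.0498 between 2000 and 5000 UMIs, 0.0123 without the highest doublet scores, 0.0197 as a mean over barcodes, 0.0322 thinned to 1000 UMIs, 0.0253 with free RNA subtracted, 0.0155 over UMIs outside the members, and -0.0014 without mitochondrial UMIs. In B cell-like barcodes, 0.0522 became 0.0479 (looser gate), 0.0577 (stricter gate of 5 UMIs and 95%), 0.0705 (2000 to 5000 UMIs), 0.0658 (thinned), 0.0430 (without mitochondrial UMIs), 0.0760 (free RNA) and 0.0718 (outside the members). In macrophage-like barcodes, 0.1035 became 0.0609 (looser gate), 0.1511 (stricter gate), 0.0976 (mitochondrial limit), 0.0934 (2000 to 5000 UMIs), 0.0599 (doublets), 0.0573 (mean), 0.0693 (thinned), 0.0916 (without mitochondrial UMIs), 0.1496 (free RNA) and 0.1245 (outside the members). T cells over macrophages in PyMT, 1.2364, became 1.1482 (looser gate), 1.4497 (stricter gate), 1.2297 (mitochondrial limit), 1.2412 (2000 to 5000 UMIs), 1.1983 (mean), 1.2127 (thinned), 1.2431 (standard subunits), 1.3104 (free RNA) and 1.6755 (outside the members). In Jagged1/PyMT, 1.1424 became 1.0936 (looser gate), 1.3098 (stricter gate), 1.1454 (from 1000 UMIs), 1.1976 (2000 to 5000 UMIs), 1.1867 (doublets), 1.1606 (mean), 1.1756 (thinned), 1.1459 (without mitochondrial UMIs), 1.1495 (standard subunits), 1.1860 (free RNA) and 1.5665 (outside the members). Members called between genotypes at 1.5-fold were 0 in T cells, B cells and macrophages. The count was 1 lower in T cells with no UMI minimum, 3 lower in B cells at 1.2-fold, 2 higher and 1 lower in macrophages between 2000 and 5000 UMIs, and 6 higher and 2 lower in macrophages at 1.2-fold. Single values past 1.5-fold that changed sign were Rpsa (-0.063 in Jagged1/PyMT) and Rps27l (-0.23 in PyMT) in mature dendritic cells over macrophages under 4000 UMIs, and the biogenesis median there between 2000 and 5000 UMIs in PyMT (0.52, from 1 gene). Fewer barcodes enter these settings, and no other cause was tested. Of the other single values, 770 lay within their counting interval and 333 moved outside it. Of these, 34 changed sign from a value under 1.5-fold, such as Rpl7l1 in T cells over macrophages of PyMT, from -0.43 to 0.19 between 2000 and 5000 UMIs. No paired analysis was possible because both samples of a genotype share 1 matrix with no record of the sample, and for the same reason no replicate could be left out. Depth limits the rare classes: NK, cDC1, monocyte and plasmacytoid dendritic cell-like values rest on at most 32 barcodes a library.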
